A study of Mus musculus with 7 samples.

Results

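Slc16a11, Slc16a13, Clec10a, Wfdc17, Cntd1, Gm12312 and Gm12349 are 7 genes on mouse chromosome 11, in a stretch of 32 Mb that begins at 70 Mb of the GRCm38 build. They are 7 of the 48440 genes in the deposited table and 7 of the 1093 genes that it holds in this stretch. They were selected on the difference between PROSER1 KO and wild-type libraries, so their values in the groups are given as a description and without a test. LSK cells, which carry Sca1 and cKit but no lineage markers, are found in bone marrow (BM) as a mixture of hematopoietic stem cells and multipotent progenitors. BM was taken unfractionated from wild-type mice or from mice with a constitutive, endonuclease-made PROSER1 KO and given to C57BL/6 recipients after 9.5 Gy of irradiation. The LSK cells were sorted at day 77 (11 weeks in the methods) and received no other treatment, and their polyA RNA was sequenced in pairs of reads, giving 4 libraries from wild-type and 3 from PROSER1 KO donors. PROSER1 interacts with TET enzymes, which oxidize methylated cytosine in DNA. The labels call the libraries of a group biological replicates and do not say that each came from a separate animal, so the p-values given for other genes measure the spread between these samples.

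The 7 genes belong to several families. SLC16 proteins are membrane transporters of the monocarboxylate transporter family, whose best known members carry lactate and pyruvate with the aid of the chaperone basigin. C-type lectins bind sugars on cells and microbes, WAP domain proteins are small secreted proteins that include inhibitors of proteases, and meiotic recombination genes pair and cross over chromosomes in germ cells and are mostly silent in other tissues. Pseudogenes and long noncoding RNAs make transcripts without a known protein product.

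The values are normalized counts, that is read pairs per gene divided by 1 size factor per library. The wild-type libraries held 40845213, 42742329, 33143619 and 35160254 read pairs on genes, and the libraries labelled PROSER1 KO held 37140168, 45140743 and 40794865. At these depths a limit of 3 read pairs per library, which is what a count of 0 allows, equals a normalized count of 2.54 to 3.48 and covers counting error only. Proser1, the targeted gene, had normalized counts of 2019.4, 2153, 2103 and 2077 in the wild-type libraries 1 to 4 and 2464, 2359 and 2338 in those labelled PROSER1 KO (1 to 3). Its mRNA was not lower in libraries labelled PROSER1 KO, so every direction below rests on the labels. The stem and progenitor markers of the sort were abundant in all 7 libraries. Kit had normalized counts of 25535 to 32357 in the wild-type group and 25761 to 29959.5 in libraries labelled PROSER1 KO, and Ly6a, which encodes Sca1, had 4006 to 6822 and 3961 to 5682. The 10 LSK and stem cell markers summed to 116284 ± 6196 (SD, n = 4) in the wild-type group and 114028 ± 1975 (SD, n = 3) in the other group, with Cd34 as the most abundant, followed per kb of exon by Ly6a and Flt3. In bulk RNA, fewer cells of a type and less RNA per cell cannot be told apart.

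Both transporter genes were lower in libraries labelled PROSER1 KO, Slc16a11 more so than its neighbor Slc16a13. Slc16a11 (ENSMUSG00000040938) encodes a member of the family linked to lipid metabolism, and lies on the forward strand from 70212752 to 70216417. Normalized counts of Slc16a11 were 899, 938, 810.3 and 714 in the wild-type libraries 1 to 4 and 338, 234 and 350.4 in those labelled PROSER1 KO (1 to 3). The lowest wild-type library was above the highest of the libraries labelled PROSER1 KO. Its means were 840.5 ± 99.8 (SD, n = 4) and 308 ± 63.7 (SD, n = 3), which is 2.73-fold lower, and the log2 fold change fitted on log2(normalized count + 1) was -1.46 with a standard error of 0.15. Slc16a13 (ENSMUSG00000044367), a less studied transporter of the family, lies on the reverse strand from 70216789 to 70221064, so that the ends of both genes face each other across 371 bases. It had normalized counts of 612, 664, 639 and 661 in the wild-type group and 479, 502 and 479 in libraries labelled PROSER1 KO. These groups did not overlap either, but the difference was smaller, with means of 644 ± 24.3 (SD, n = 4) and 487 ± 13.2 (SD, n = 3), 1.32-fold lower, giving -0.40 as log2 fold change with a standard error of 0.075.

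The balance between the neighboring transporters was also different. Per kb of exon, the ratio of Slc16a11 to Slc16a13 was 1.497, 1.44, 1.29 and 1.10 in the wild-type libraries 1 to 4 and 0.719, 0.476 and 0.745 in those labelled PROSER1 KO (1 to 3). Slc16a11 was thus the higher of the pair per kb in each wild-type library and the lower in each library labelled PROSER1 KO, at mean levels per kb of 329 and 120.4 for Slc16a11 and 248 and 187 for Slc16a13. With blastn, 0 transcripts of other genes matched the transcripts of either gene at an E-value limit of 1e-20.

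**Figure D1:**
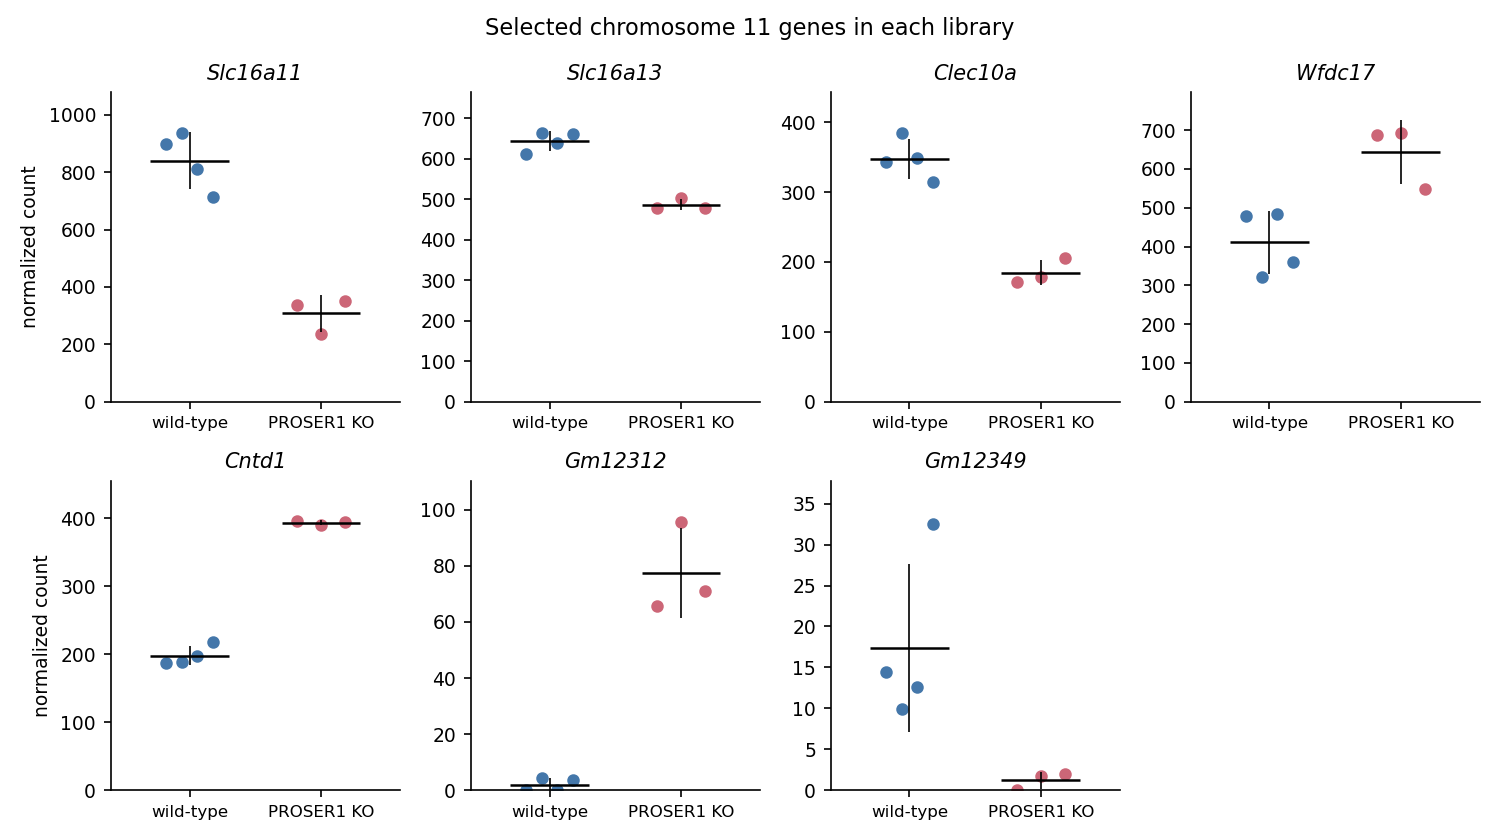
Normalized count of each of the 7 selected genes (vertical axes, linear from 0) in the 4 wild-type and 3 PROSER1 KO libraries (points), with the mean (horizontal bar) and SD (vertical line). The groups do not overlap in any panel, which follows from how the genes were chosen, and Slc16a11, Slc16a13, Clec10a and Gm12349 are lower in libraries labelled PROSER1 KO, and Wfdc17, Cntd1 and Gm12312 are higher.

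Across the SLC16 family, the other transporters showed no call. Calls needed a Benjamini-Hochberg adjusted p under 0.05 and a fold change above 1.5. Of the 14 family genes 12 were tested, and only the 10 other than Slc16a11 and Slc16a13, which were selected on this contrast, are counted here. Of these 10, limma, edgeR and DESeq2 each called 0, and 1 had an unadjusted limma p under 0.05. Over all tested genes, limma called 0.258% and 9.73% had such a p, so nothing is read from these counts. The median log2 fold change of the 10 was -0.06, against 0.00 over all 16251 tested genes. Slc16a6 and the lactate transporter Slc16a1 had the highest levels of the family per kb of exon. In normalized counts Slc16a6 averaged 2406 ± 224 (SD, n = 4) in the wild-type group and 2224 ± 224 (SD, n = 3) in libraries labelled PROSER1 KO, and Slc16a1 had 2033 ± 85.7 and 2018 ± 263, both differing by less than the spread between libraries. Among 15 genes that handle monocarboxylates, 12 were tested, and limma, edgeR and DESeq2 called 0 (0.258% over all tested genes with limma). Of the 12, 1 had an unadjusted limma p under 0.05 (9.73% over all tested genes), and the median log2 fold change was 0.00. The highest of these by level per kb of exon were Ldha, Bsg and Oxct1. In normalized counts, not divided by length, Ldha, the muscle-type lactate dehydrogenase subunit, was at 15626 ± 1389 and 16067 ± 1546, the chaperone gene Bsg at 6564 ± 262 and 6890 ± 105, and the ketone body enzyme gene Oxct1 at 6254 ± 271 and 6712 ± 443.

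RefSeq promoter sequences (GRCm38.p6) were found for 3 of the 7 genes, Slc16a11, Cntd1 and Wfdc17. The 250 bases before each RefSeq start are shown because CG dinucleotides, in capitals, are the sites that TET enzymes act on. DNA methylation was not measured in these libraries.
Slc16a11, chr11:70213660-70213909, forward strand: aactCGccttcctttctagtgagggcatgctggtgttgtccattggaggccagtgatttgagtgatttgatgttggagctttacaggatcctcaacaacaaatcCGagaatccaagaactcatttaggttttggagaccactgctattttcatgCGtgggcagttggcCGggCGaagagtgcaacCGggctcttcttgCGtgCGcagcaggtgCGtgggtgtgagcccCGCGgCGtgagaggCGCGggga
Cntd1, chr11:101278953-101279202, forward strand: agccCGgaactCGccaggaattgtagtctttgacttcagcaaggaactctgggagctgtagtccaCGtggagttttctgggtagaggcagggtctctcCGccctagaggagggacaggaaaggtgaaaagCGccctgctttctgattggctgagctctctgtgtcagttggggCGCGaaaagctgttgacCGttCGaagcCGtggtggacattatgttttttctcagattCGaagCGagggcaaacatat
Wfdc17, chr11:83703806-83704055, forward strand: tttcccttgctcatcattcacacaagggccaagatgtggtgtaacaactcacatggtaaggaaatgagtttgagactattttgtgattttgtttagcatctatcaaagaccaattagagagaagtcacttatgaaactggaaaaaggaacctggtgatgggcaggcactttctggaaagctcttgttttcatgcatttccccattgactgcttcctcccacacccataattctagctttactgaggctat
The windows differed widely in CG content. The Slc16a11 window held 14 CG sites and the Cntd1 window 12, against a median of 6 over the 32851 promoters of this length, and the Wfdc17 window held 0, where 92.1% of promoters held at least 1. In the GENCODE annotation the Slc16a11 window lies inside the gene, with 199 bases in exons and 51 in introns, because some annotated transcripts start further upstream. The Cntd1 window begins 59 bases before the gene and reaches into Coa3 on the other strand, and 185 bases of the Wfdc17 window lie before the gene. The CCAAT motif, read on both strands like those that follow, had 1 match in each of the 3 windows and was present in 33.8% of all promoters. The E-box CANNTG had 2, 2 and 1 matches in the Slc16a11, Cntd1 and Wfdc17 windows (66.2% of all promoters), and the ETS core GGAA had 1, 4 and 7 (93.4%). The RUNX core TGTGGT was present in the Wfdc17 window alone of the 3 (14.0% of all promoters). AGATAA (9.99%) and TATAAA (12.4%) were in 0 of the 3.

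Clec10a (ENSMUSG00000000318), a galactose-binding lectin of macrophages and dendritic cells, was lower in libraries labelled PROSER1 KO. It lies on the forward strand from 70156197 to 70170834 and ends 41.9 kb before Slc16a11. Normalized counts of Clec10a were 342, 385, 348 and 314 in the wild-type libraries 1 to 4 and 171, 178 and 205 in those labelled PROSER1 KO (1 to 3). Every wild-type library was above every library labelled PROSER1 KO, with means of 347 ± 29.1 (SD, n = 4) and 185 ± 18.2 (SD, n = 3), 1.88-fold lower, for which the log2 fold change was -0.91 (standard error 0.12). Its paralog Mgl2, the lectin gene directly before it at 18.6 kb, had 30.8, 16.2, 16.1 and 29.0 in the wild-type group and 0, 2.54 and 19.2 in libraries labelled PROSER1 KO, so that its groups overlapped. Mgl2 reached the filter through the wild-type libraries alone, and no p-value is given for it. The transcripts of Clec10a and Mgl2 were 92.8% identical over 851 bases with a longest exact run of 183 bases, which makes the reads of both uncertain, and transcripts of Clec10a matched 115 genes in all.

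No marker of the cell types in which Clec10a is best known was called. Of 18 macrophage markers 16 were tested, of 16 dendritic cell markers 15 and of 12 monocyte markers 11. In each list limma, edgeR and DESeq2 called 0, against 0.258%, 0.246% and 0.873% over all tested genes, so nothing is read from these counts. At an unadjusted limma p under 0.05, which 9.73% of all tested genes met, 2 macrophage markers were higher, 2 dendritic cell markers were lower, and of the monocyte markers 1 was higher and 1 lower. The lower dendritic cell markers were Batf3 and Mgl2, and Mgl2 reached the filter through the wild-type libraries alone. The macrophage markers summed to 2531, 2287, 2387 and 3189 in the wild-type libraries 1 to 4 and 3109.7, 3104 and 3376 in those labelled PROSER1 KO (1 to 3). Their median log2 fold change was 0.28, and the most abundant genes per kb of exon were Cd68, Csf1r and Axl. The dendritic cell markers summed to 36436, 33472, 26181 and 40418 in the wild-type group and 35898, 23491 and 28106 in libraries labelled PROSER1 KO (median log2 fold change -0.13), led by the antigen presentation genes Cd74 and H2-Ab1 and by Bst2. The monocyte markers summed to 17413, 14616, 12751 and 17978 and to 14441, 12561 and 14562 (median 0.10), led by Ctss, Lyz2 and Ms4a6c. The sums of each list overlapped between the groups.

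Other C-type lectins were not called. Of 33 lectin genes 20 were tested, Clec10a among them. Of the 19 others, limma, edgeR and DESeq2 called 0 (0.258% over all tested genes with limma). An unadjusted limma p under 0.05 was found for 4 (9.73% over all tested genes), 2 higher and 2 lower. The median log2 fold change of the 19 was 0.10. Mgl2 is counted among the lower lectins, although it reached the filter through the wild-type libraries alone. The highest lectins by level per kb of exon were Clec2d, Clec12a and Clec4e. In normalized counts, not divided by length, Clec2d was at 2174 ± 179 (SD, n = 4) and 2325 ± 51.3 (SD, n = 3), Clec12a, an inhibitory receptor of myeloid cells, at 2003 ± 367 and 2055 ± 316, and the myeloid receptor gene Clec4e at 1255 ± 271 and 1310 ± 195.

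Wfdc17 (ENSMUSG00000069792), a small secreted WAP domain protein made by macrophages, was higher in libraries labelled PROSER1 KO. It lies on the forward strand from 83703991 to 83706268. It had normalized counts of 478, 322, 483 and 359 in the wild-type group and 688, 694 and 547 in libraries labelled PROSER1 KO. The groups did not overlap, although the wild-type libraries spread over a wide range, and its means were 410.5 ± 82.1 (SD, n = 4) and 643 ± 83.1 (SD, n = 3), 1.57-fold higher (log2 fold change 0.66, standard error 0.16). The macrophage markers had summed normalized counts of 2599 ± 406 and 3196 ± 155, which overlapped between the groups, and a median log2 fold change of 0.28. None of them was called, and a link of these markers to Wfdc17 was not tested. The WAP domain gene Wfdc18, which follows it at 2.75 kb, had 55.0 ± 22.8 and 67.0 ± 9.51, and its groups overlapped (limma adjusted p = 0.768). The transcripts of both were 79.5% identical over 523 bases with a longest exact run of 30 bases. The pseudogene Gm11429 directly before Wfdc17 was at 0 in all libraries. Of 20 WAP domain genes 6 were tested, Wfdc17 among them. Among the other 5, limma, edgeR and DESeq2 called 0 (0.258% over all tested genes with limma). An unadjusted limma p under 0.05 was found for 0 (9.73% over all tested genes), and the median log2 fold change was -0.23. The protease inhibitor gene Slpi, with the highest level of the list per kb of exon, had normalized counts of 1682 ± 564 in the wild-type group and 1362 ± 37.8 in libraries labelled PROSER1 KO.

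Cntd1 (ENSMUSG00000078653), a cyclin-like protein that matures crossovers in meiosis, was higher in libraries labelled PROSER1 KO. It lies on the forward strand from 101279012 to 101296317. It had normalized counts of 187, 188, 198 and 218 in the wild-type group and 395, 389 and 395 in libraries labelled PROSER1 KO. The groups lay far apart, with means of 198 ± 14.4 (SD, n = 4) and 393 ± 3.33 (SD, n = 3), 1.99-fold higher (log2 fold change 0.99, standard error 0.11). Its reads are uncertain, because 3104 of its 4421 exon bases are also exon of Becn1 and 82 are exon of Coa3, both on the other strand, and although the library kit keeps the strand, its use in counting is not given in the sources used here. Its transcripts also matched those of 2468 other genes at the same E-value limit, which adds to this uncertainty. Becn1, an autophagy gene, had 4726 ± 128 and 4722 ± 57.4 normalized counts (log2 fold change 0.00, limma adjusted p = 0.998). Coa3, which serves assembly of cytochrome oxidase, had 989.9 ± 39.0 and 968 ± 59.8 (log2 fold change -0.03, limma adjusted p = 0.921). Neither overlapping gene was called by limma, which does not show that they are equal.

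DESeq2, but not limma, called the meiotic genes Ccnb1ip1 and Ccdc36, both higher in libraries labelled PROSER1 KO. Of 40 meiotic recombination genes 38 were in the table and 21 were tested. Cntd1, selected on this contrast, and Tex11, which reached the filter through the libraries labelled PROSER1 KO alone, are left out of the counts. Of the other 19, limma and edgeR called 0 and DESeq2 called 2. Over all tested genes limma called 0.258%, edgeR 0.246% and DESeq2 0.873%. An unadjusted limma p under 0.05 was found for 8 of the 19, 7 of them higher and 1 lower. The libraries of the groups did not overlap for 7 of the 19, against 1625 of all 16251 tested genes (9.999%). The median log2 fold change was 0.25 with Tex11 and 0.20 without it, against 0.00 over all tested genes, where limma gave 1582 genes (9.73%) at an unadjusted p under 0.05, 812 higher and 770 lower. These genes were chosen by function, with the changed genes of these libraries already known, so the counts are given as a description only. Ccnb1ip1, which marks crossover sites, had normalized counts of 38.5, 51.4, 82.8 and 66.1 in the wild-type libraries 1 to 4 and 159, 166 and 246 in those labelled PROSER1 KO (1 to 3). This is a log2 fold change of 1.68 (limma adjusted p = 0.0526, DESeq2 adjusted p = 7.32e-07). Ccdc36, needed for the breaks that start recombination, had 23.1, 22.5, 27.6 and 45.2 in the wild-type group and 88.7, 92.2 and 90.2 in libraries labelled PROSER1 KO. Its log2 fold change was 1.64 (limma adjusted p = 0.0624, DESeq2 adjusted p = 0.000284). Tex11, an X-linked crossover gene, had 0 counts in each of the 4 wild-type libraries and 32.3, 42.3 and 6.72 in libraries labelled PROSER1 KO. Against the limit of 3 read pairs in a wild-type library this is at least 7.80-fold higher, but it was not tested without PROSER1 KO replicate 1 or 2, where its mean fell below 10, and no p-value is given for it. Over 17 settings the adjusted p ranged from 7.32e-07 to 0.272 for Ccnb1ip1 and from 0.000284 to 0.278 for Ccdc36. Without wild-type replicate 4, limma called Ccdc36 (adjusted p = 0.0257), and without wild-type replicate 3 it called Ccnb1ip1 (0.0359). At a pseudocount of 10 limma called both (adjusted p = 0.0473 for each). With the replicate number as a block it called Ccnb1ip1 (0.0453) but not Ccdc36 (0.0925). Without PROSER1 KO replicate 1 it called 1 other gene of the list. The genes with the highest level of the list per kb of exon were Syce2, Cdk2 and Rec8, which also act in dividing cells or in meiosis. Cdk2 had 4883 ± 136 and 5129 ± 70.9 normalized counts, Syce2 had 1675 ± 136 and 1740.1 ± 179, and Rec8 had 1329 ± 186 and 1628 ± 195, all with limma adjusted p of at least 0.465.

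**Figure D2:**
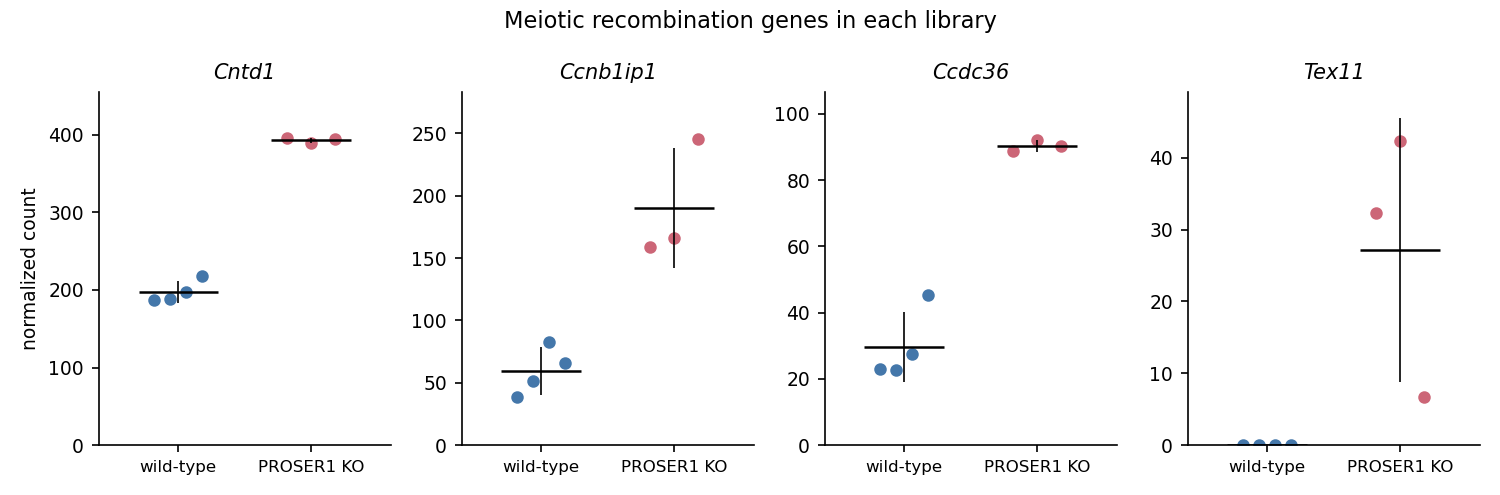
Normalized count (vertical axes, linear from 0) of the meiotic recombination genes Cntd1, Ccnb1ip1, Ccdc36 and Tex11 in the 4 wild-type and 3 PROSER1 KO libraries (points), with the mean (horizontal bar) and SD (vertical line). The libraries labelled PROSER1 KO lie above the wild-type libraries for each gene, and Tex11 has 0 counts in the wild-type libraries. Cntd1 was selected on this contrast, and the other genes are shown because DESeq2 called them on it. The separation thus largely follows from how the genes were picked.

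**Figure D3:**
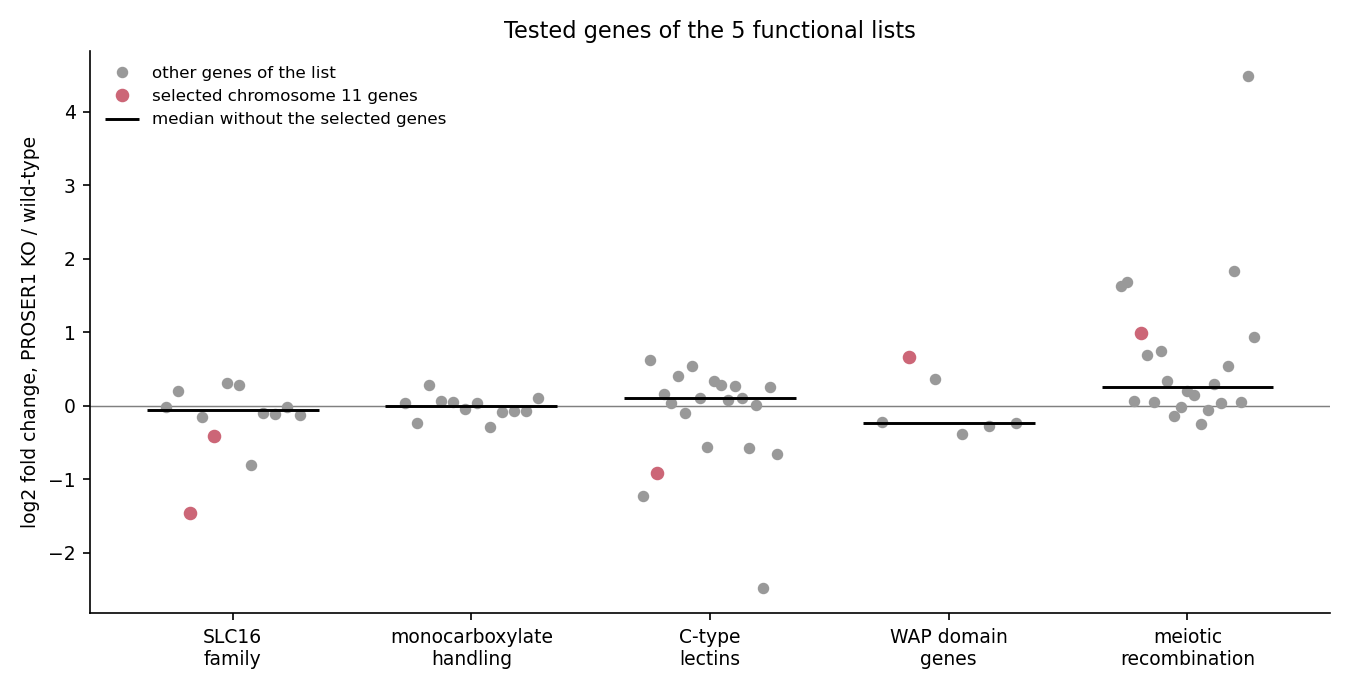
Log2 fold change between the groups (vertical axis, from limma on log2(normalized count + 1)) for each tested gene of the 5 functional lists (points), with the selected chromosome 11 genes in red and the median of the other genes of each list as a bar. The medians lie between -0.23 for the WAP domain genes and 0.25 for the meiotic recombination genes. Without Tex11, which reached the filter through the libraries labelled PROSER1 KO alone, the meiotic median is 0.20.

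Gm12312 (ENSMUSG00000082145), a processed pseudogene on the forward strand from 70358138 to 70358781, was nearly restricted to the libraries labelled PROSER1 KO. It had normalized counts of 0, 4.51, 0 and 3.48 in the wild-type libraries 1 to 4, which are 0, 5, 0 and 3 read pairs, and 65.7, 95.6 and 71.0 in those labelled PROSER1 KO (1 to 3), which are 63, 113 and 74 read pairs. Scaled for depth, the 250 read pairs of the libraries labelled PROSER1 KO against 8 in wild-type were 38.1-fold more. Of the 8, 5 were in wild-type replicate 2, and without it the ratio was 72.6, a comparison added after the data were seen. The pseudogene is a copy of the coding sequence of Fgfr1op2, a gene on chromosome 6. Its 644 bases were 96.6% identical to it, with 20 mismatches, 2 gap openings and a longest exact run of 133 bases. The first 300 bases of Gm12312 and the matching bases of the Fgfr1op2 transcript are shown because they hold the letters that can assign a read to either gene. Capitals mark the 10 alignment columns that differ.
Gm12312, chr11:70358138-70358437, forward strand, exon: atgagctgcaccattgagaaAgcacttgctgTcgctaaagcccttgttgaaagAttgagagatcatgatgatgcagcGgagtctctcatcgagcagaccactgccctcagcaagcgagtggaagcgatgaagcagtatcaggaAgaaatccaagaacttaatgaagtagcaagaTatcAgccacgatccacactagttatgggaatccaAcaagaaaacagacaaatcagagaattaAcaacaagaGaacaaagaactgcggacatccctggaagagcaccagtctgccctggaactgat
Fgfr1op2, bases 353 to 651 of its transcript, coding sequence: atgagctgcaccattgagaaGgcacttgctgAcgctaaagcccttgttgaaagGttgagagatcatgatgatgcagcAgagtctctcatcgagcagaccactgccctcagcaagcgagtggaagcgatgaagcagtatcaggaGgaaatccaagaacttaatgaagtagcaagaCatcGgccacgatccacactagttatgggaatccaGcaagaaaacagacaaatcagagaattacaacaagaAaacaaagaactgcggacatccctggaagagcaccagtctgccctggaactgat
Reads from the shared runs could be given to either gene, so the level of Gm12312 is uncertain. Fgfr1op2 had normalized counts of 6249, 6188, 6038 and 6279.8 in the wild-type group and 6328, 6198 and 6116 in libraries labelled PROSER1 KO (log2 fold change 0.01, limma adjusted p = 0.979). Of the genes directly beside Gm12312, Alox15 at 6.11 kb had means of 5.54 ± 2.23 (SD, n = 4) and 8.30 ± 5.38 (SD, n = 3) and was under the minimum for testing, and Pelp1 at 34.1 kb had 2659 ± 130 and 2693 ± 116 (limma adjusted p = 0.949).

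Gm12349 (ENSMUSG00000087265), a long noncoding RNA on the forward strand from 100291671 to 100293711, was close to 0 in libraries labelled PROSER1 KO. It had normalized counts of 14.4, 9.92, 12.6 and 32.5 in the wild-type group and 0, 1.69 and 1.92 in libraries labelled PROSER1 KO, from 15, 11, 11 and 28 and from 0, 2 and 2 read pairs. The groups did not overlap, and wild-type replicate 4 was well above the others. Scaled for depth, the 65 read pairs in wild-type against 4 in libraries labelled PROSER1 KO were 13.3-fold more. The antisense gene Gm14206 directly before it was at 0 except for 1.92 in wild-type replicate 1, and the translation factor gene Eif1, which follows at 26.2 kb, had 10989 ± 452 (SD, n = 4) and 11205 ± 316 (SD, n = 3) (limma adjusted p = 0.896).

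Over all 16251 tested genes, whose mean normalized count was 10 or more, limma called 42 (0.258%), edgeR called 40 of 16251 (0.246%) and DESeq2 called 165 of 18903 (0.873%). All 7 selected genes passed the filter, and limma called 4 of them (Slc16a11, Clec10a, Cntd1 and Gm12312), edgeR 4 and DESeq2 6, all but Slc16a13, whose fold was under 1.5. The groups did not overlap for 7 of the 7 and for 1625 of all 16251 tested genes (9.999%). The counts for the 7 follow from how they were chosen and nothing is read from them. Without PROSER1 KO replicate 1 or 2, limma called 2 of the 7, and without PROSER1 KO replicate 2 it called 23 genes in all.

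In the 32 Mb stretch, 486 genes were tested and limma called 5, the 4 named above and Slfn9. Of the 479 tested genes that were not selected, limma and edgeR thus called 1 and DESeq2 5. DESeq2 called Slfn9, Serpinf1, Chad and Hoxb6 beside the selected genes. Its count of 5 also holds Tbx4, which reached the filter through the wild-type libraries alone, so nothing is read from that call. Slfn9, a gene of the Schlafen family of immune regulators, had normalized counts of 2050.2, 2467, 2622 and 2445 in the wild-type group and 3305, 4077 and 4157 in libraries labelled PROSER1 KO (log2 fold change 0.68, standard error 0.10, limma adjusted p = 0.0290). Its groups did not overlap. Its call was lost without wild-type replicate 1, 2 or 4 or PROSER1 KO replicate 2 or 3 (adjusted p = 0.0554, 0.0802, 0.0766, 0.122 and 0.151 from limma) and without the mean-variance trend (0.167), with a range over all alternatives from 2.29e-10 to 0.167. Serpinf1, which encodes an inhibitor of blood vessel growth, had 652 ± 63.1 (SD, n = 4) and 402 ± 107 (SD, n = 3), Chad, a cartilage matrix gene, had 101.7 ± 26.5 and 48.1 ± 8.89, and the limb transcription factor gene Tbx4 had 19.8 ± 7.08 and 2.08 ± 1.86. For Serpinf1 and Chad the limma adjusted p-values were 0.146 and 0.171 and the DESeq2 adjusted p-values 0.00104 and 0.0227. No p-value is given for Tbx4. Hoxb6, a homeobox gene of blood progenitors, had 93.0 ± 33.7 and 202 ± 19.2 (limma adjusted p = 0.160, DESeq2 adjusted p = 0.00201). limma called 3 genes of the stretch, in place of 5, when wild-type replicate 1 or 2 or any single PROSER1 KO library was left out.

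Within 1 Mb of a selected gene, 192 other genes were tested, of which limma, edgeR and DESeq2 called 1, Slfn9, at 712 kb from Wfdc17, and limma called 0 of them without wild-type replicate 1, 2 or 4 or PROSER1 KO replicate 2 or 3. Of the 192, 18 had an unadjusted limma p under 0.05, 10 higher and 8 lower, against 9.73% of all tested genes. Around Wfdc17 these were 6 of 39 tested genes, 5 higher and 1 lower, of which limma called Slfn9 alone. The 5 higher genes were Slfn9, Slfn8, Slfn10-ps, Slfn2 and Slfn3, all of the Schlafen family, at 489 to 712 kb from Wfdc17. Within 1 Mb of Slc16a11, 84 other genes were tested, and all 3 tools called 0 (0.258% over all tested genes with limma). Of these, 8 had an unadjusted limma p under 0.05 (9.73% over all tested genes), 2 higher and 6 lower, and the median log2 fold change was -0.02. Mgl2, counted among the lower genes here and among the 192, reached the filter through the wild-type libraries alone. Clec10a, Slc16a11 and Slc16a13 span 64.9 kb and were all lower, and Gm12312, which starts 137 kb beyond Slc16a13, was higher. The 4 tested genes between Slc16a13 and Gm12312 had log2 fold changes from -0.79 to 0.25 and a lowest limma adjusted p of 0.668. Bcl6b, a transcription factor gene directly after Slc16a13 at 3.06 kb, had 54.3 ± 9.91 (SD, n = 4) and 49.9 ± 9.27 (SD, n = 3) normalized counts (limma adjusted p = 0.923).

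**Figure D4:**
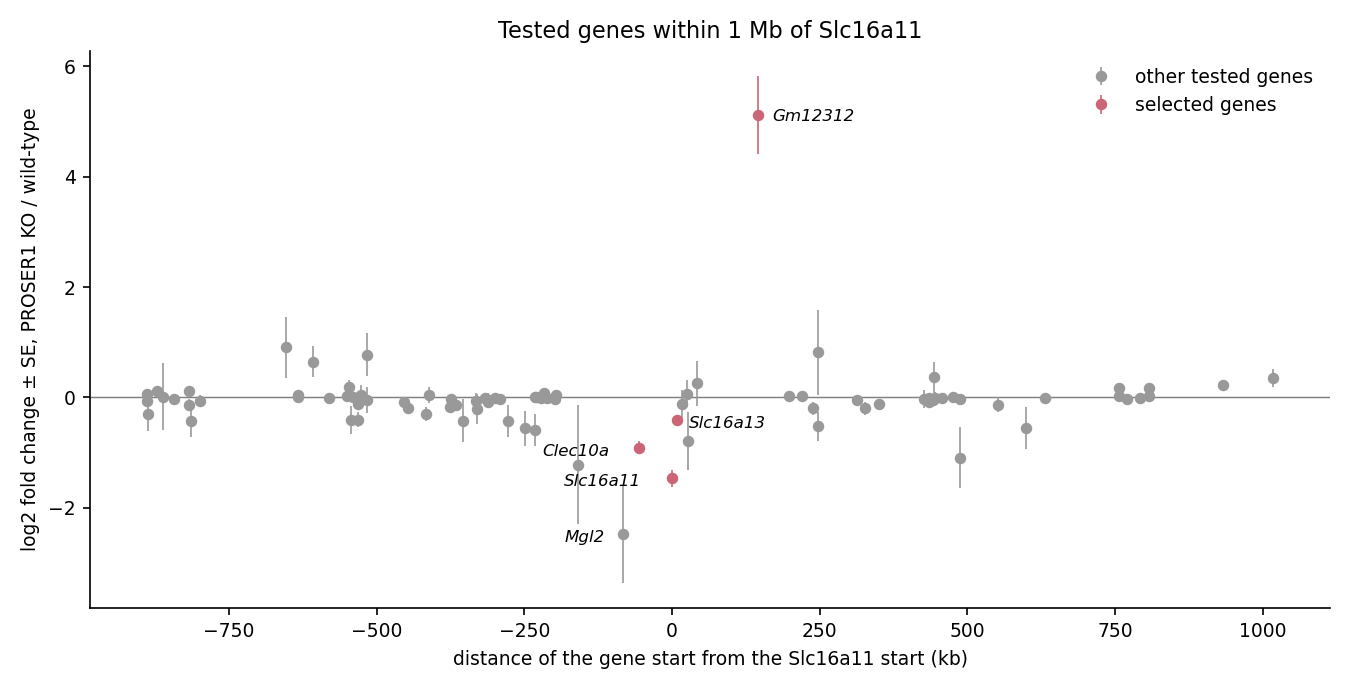
Log2 fold change between the groups with its standard error (vertical axis, from limma on log2(normalized count + 1)) of each tested gene within 1 Mb of Slc16a11, against the distance of its start from the Slc16a11 start in kb (horizontal axis), with the selected genes in red and the others in grey. Clec10a, Slc16a11 and Slc16a13 lie below 0 and Gm12312 lies at 5.12, while the 84 other genes have a median of -0.02.

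The tested genes whose levels followed each gene most closely were found by the root mean square difference of centered log2(normalized count + 1) over the 7 libraries, among 16250 others. Centered on all libraries, this measure largely ranks genes by the difference between the groups on which the genes were selected. For Slc16a11 these were Batf3, Psd2 and Gm16867, at differences of 0.20, 0.20 and 0.22. Batf3, a transcription factor gene of the dendritic cell list, had normalized counts of 40.4, 51.4, 49.4 and 39.4 in the wild-type group and 22.9, 14.4 and 23.0 in libraries labelled PROSER1 KO. For Clec10a they were Gm42648, Pde4c and Wdfy2, at 0.14, 0.15 and 0.15. Pde4c, a cyclic AMP phosphodiesterase gene, had means of 243 ± 25.7 (SD, n = 4) and 127 ± 9.49 (SD, n = 3). For Cntd1 they were Rnase4, Gm47283 and Mid1, at 0.09, 0.11 and 0.14. Rnase4, a secreted ribonuclease gene, had means of 162 ± 11.8 and 340.6 ± 17.7. All 9 lie on other chromosomes than the selected genes. Of these, Gm16867, Wdfy2 and Rnase4 lie on chromosome 14, as does the meiotic gene Ccnb1ip1.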

How the data were processed

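RNA of sorted LSK cells was grouped by label into 4 wild-type and 3 PROSER1 KO libraries. For processing, the authors used Trimmomatic for trimming, STAR with mm10 for mapping and featureCounts for counting, and the deposited signal per gene is the count of read pairs over a DESeq2 size factor. Whole read pairs were recovered for 100% of values within 0.01 read pairs. Since the deposited unit is not raw counts, limma 3.58.1 in R 4.3.3 (lmFit, eBayes with a mean-variance trend) was fitted to log2(normalized count + 1), keeping only genes whose mean reached 10. The added 1 understates folds of low genes. Calls needed a Benjamini-Hochberg adjusted p under 0.05 over all tested genes and a fold above 1.5. edgeR 4.0.16 (quasi-likelihood) and DESeq2 1.42.0 ran on recovered read pairs, and DESeq2 called among 18903 genes with an adjusted p. The calculations were tested on simulated data.

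Positions come from GENCODE M21 (GRCm38), whereas the methods name release M25 and the identifier column M10, and 48058 of 48440 identifiers had a position. Transcripts were compared with blastn 2.17.0 (E-value limit 1e-20).

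Named genes were the selected genes, the genes directly before and after each in the annotation, genes called within 1 Mb of one, genes called by limma or DESeq2 in the stretch, called genes and the 3 of highest mean per kb of exon in each list, the 3 nearest in pattern to Slc16a11, Clec10a and Cntd1, and Proser1. Kit, as a marker of the sort, Fgfr1op2, found by comparing transcripts, and the Schlafen genes near Wfdc17 other than Slfn9 are named outside this rule. The selected genes and all lists were chosen with earlier results of these data known, and the lists were written with the changed genes of the study already read. The choices varied were the tool (edgeR, DESeq2), the pseudocount (0.1, 10), the filter (none, mean of 50), TMM scaling, the trend, a block for replicate number, the omission of any single library, and the window (0.5, 2 Mb). No column of values was left unused.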

Additional observations from a re-analysis of the deposited data

Results flagged for a closer look

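In the 4 wild-type libraries, a single library lay far from the other 3 for 3 of the 74 genes and sums checked, where chance alone gives about 1 such case in 20 groups. Slpi was at 838 normalized counts in wild-type replicate 3, below the others, and Lyz2 was at 4070.2 in wild-type replicate 4, also below the others. Gm14206 was at 1.92 in wild-type replicate 1 and at 0 in the others, a pattern that any gene seen in a single library gives.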

How the results depend on the processing

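The log2 fold changes of the 7 selected genes kept their sign in all 108 values that could be fitted under the alternatives (Gm12312 and Gm12349 fell below the filter at a minimum mean of 50, and Gm12349 also without wild-type replicate 1 or 4), and 104 moved by less than 1 SD between libraries. The other 4 were those of Gm12312 (6.91 at a pseudocount of 0.1 and 2.87 at 10) and Gm12349 (-4.46 and -1.23), whose low groups depend on the pseudocount. With 1 library left out, Slc16a11 stayed between -1.57 and -1.28. The 7 genes were selected on this contrast and their groups did not overlap. The kept signs follow from this, and nothing is read from them. Called genes over the whole table numbered 165 with DESeq2, 17 without the trend and 23 to 42 with 1 library left out, against 42. In the stretch they numbered 11 with DESeq2, Tbx4 among them, 2 without the trend and 3 to 5 with 1 library left out, against 5. For genes near a selected gene, the count of 1 became 0 without the trend in limma (13 at an unadjusted p under 0.05) and within 0.5 Mb (9, and edgeR and DESeq2 called 0), and 0 to 1 with 1 library left out. In the lists, the calls of SLC16 genes, C-type lectins and WAP domain genes are of selected genes. Without the trend, limma called 0 SLC16 genes (3 at an unadjusted p under 0.05). The C-type lectins had 0 to 1 calls with 1 library left out. DESeq2 called 1 WAP domain gene. Meiotic recombination genes called were 4 with DESeq2, 2 without a filter, 3 at a pseudocount of 10 and 1 to 2 with 1 library left out. All counts of this list given here include Cntd1. Those with DESeq2, without a filter and without PROSER1 KO replicate 3 also include Tex11, which the counts above left out. The cause of these shifts was not tested. With the replicate number as a block, limma called 35 genes in all, 4 in the stretch, 1 near a selected gene, 1 SLC16 gene, 0 C-type lectins (4 at an unadjusted p under 0.05), 0 WAP domain genes (1), 0 monocarboxylate genes (2) and 2 meiotic genes. Only the wild-type group has a replicate 4, so with the block that library does not add to the fold change. The log2 fold change of Slc16a11 was -1.54 with the block and also without wild-type replicate 4. The correlations between the deviations of samples of the same number were 0.02, 0.06 and -0.11. Depth limits Gm12312 and Gm12349, with 8 and 4 read pairs in their low groups. With 1 library left out, which was added after the data were seen, the ratio of scaled read pairs was 27.9 to 72.6 for Gm12312 and 9.31 to 17.9 for Gm12349.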
